A study of Homo sapiens with 32 samples.

Results

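Very wide m6A peaks, defined here as called peaks of at least 3000 bp on chromosomes 1 to 22, were rare in MeRIP-seq of renal cells. They numbered 136 of 457526 autosomal peaks, and the lists held 474004 peaks on all contigs. MeRIP-seq recovers RNA fragments with an antibody against N6-methyladenosine (m6A) and sets this immunoprecipitated (IP) fraction against the Input. The 16 IP libraries came from 786-O, an established clear cell renal cell carcinoma (ccRCC) line, and from RPTEC, renal proximal tubule cells immortalized with hTERT that stand in for normal tubule. Each cell line had a wild-type parent (WT), the CRISPR knockout clones SETD2KO-1 and SETD2KO-2, and SETD2KO-1R, a clone of SETD2KO-1 that carries a FLAG-tagged full-length SETD2 transgene, with 2 libraries per line and no drug treatment. The libraries of WT and of the rescued clone are grouped as SETD2-expressing, which gives 4 SETD2KO and 4 SETD2-expressing libraries per cell line. Each line other than WT is 1 clone, so libraries of a line are not independent clones, and no label says that they came from separate cultures. The p-values therefore measure the spread between libraries, which may be technical.

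m6A is placed on nascent RNA by a methyltransferase complex around METTL3 and METTL14 at adenosines within a short consensus, and it gathers near stop codons and in long internal exons. SETD2 writes trimethylation of histone H3 at lysine 36 over transcribed gene bodies, a mark that METTL14 can bind. A called peak is a stretch of RNA in which IP signal exceeds Input, so a single wide peak can cover many modified sites without resolving them.

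The 136 peaks were chosen on their length alone, so their length is a description and is not tested. Their median length was 3544.5 bp, against 395 bp over all autosomal peaks, and 64 of them were shorter than 3500 bp while 16 exceeded 5000 bp. Just inside the limit, 21 peaks from 3000 to under 3100 bp had a median score at percentile 92.1 of their own lists. Just outside it, 24 peaks from 2900 to under 3000 bp had a median at percentile 86.0.

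The lists gave 18432 to 38317 autosomal peaks per library. Read counts are not part of the lists, and the depth of single libraries is unknown here. Of 9 renal epithelial markers, 7 had a peak in 786-O and 6 in RPTEC, including PAX8, PAX2, KRT8, KRT18, CDH6 and VIM in both, whereas LRP2 and AQP1 had none in either and CUBN had a peak in only 1 library of 786-O. None of 5 markers of leukocytes, endothelium or hepatocytes had a peak. Of the 4 lists with fewer than 25000 autosomal peaks, 3 held at most 1 wide peak: 786-O SETD2KO-1R replicate 2, RPTEC WT replicate 2 and RPTEC SETD2KO-2 replicate 2. Rates of wide peaks and covered length are also given below with the 18432 highest-scoring peaks of every list. For the rates this drops no wide peak, since the lowest-ranked one stood at rank 15948 of its list. It therefore compares plain counts over a fixed number and does not correct the rates for list length. The part of list length in scores, summits and gene shares was not tested.

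Wide peaks overlapped into 46 loci. By the annotated gene around their summits, with protein-coding genes given precedence, 35 loci were named for protein-coding genes, 2 for long noncoding RNAs and 2 for transcribed pseudogenes, and 7 loci lay in no annotated gene. Peaks carry no strand, so RNA of overlapping or antisense genes cannot be told apart. Recurrence was uneven. At 24 loci the wide peak occurred in 1 library, at 11 in 2 or 3 libraries, and at 11 in 4 or more, and these last 11 loci held 87 of the 136 peaks (64.0%). Both cell lines shared 10 loci, 29 were wide in 786-O alone and 7 in RPTEC alone. No locus was wide in all 4 libraries of one SETD2 status and in none of the other, in either cell line.

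The 250 bases before 4 gene starts lay wholly inside wide peaks of at least 3 libraries, and 3 are shown, since the fourth, before C11orf68, overlaps the window of DRAP1 on the other strand. They let a reader see what a wide peak covers where it runs past an annotated start. Each is the 250 bases before the start of the named gene, read on that gene's strand from RefSeq promoter windows of GRCh38.p14. Capitals mark GGAC, the core of the m6A consensus, and its reverse complement GTCC. The first stretch, chr11:72014041-72014290 on the plus strand, lies before the antisense gene NUMA1-AS1 and inside NUMA1, whose RNA reads the other strand, and wide peaks of 9 libraries covered it.
NUMA1-AS1: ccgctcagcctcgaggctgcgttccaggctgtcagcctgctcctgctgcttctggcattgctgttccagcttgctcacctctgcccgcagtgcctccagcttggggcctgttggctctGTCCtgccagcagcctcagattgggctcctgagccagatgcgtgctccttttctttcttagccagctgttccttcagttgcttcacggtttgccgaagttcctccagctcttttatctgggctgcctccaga
The second, chr7:262473-262722 on the plus strand, lies before LOC124901807, an uncharacterised gene listed as protein-coding, and wide peaks of 4 libraries covered it.
LOC124901807: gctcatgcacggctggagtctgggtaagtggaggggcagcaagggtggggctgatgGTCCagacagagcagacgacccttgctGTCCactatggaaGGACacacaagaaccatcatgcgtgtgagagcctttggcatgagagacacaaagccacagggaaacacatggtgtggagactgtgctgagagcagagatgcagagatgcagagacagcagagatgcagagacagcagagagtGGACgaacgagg
The third, chr11:65919176-65919425 on the plus strand, lies before DRAP1, a corepressor of transcription, and wide peaks of 3 libraries covered it.
DRAP1: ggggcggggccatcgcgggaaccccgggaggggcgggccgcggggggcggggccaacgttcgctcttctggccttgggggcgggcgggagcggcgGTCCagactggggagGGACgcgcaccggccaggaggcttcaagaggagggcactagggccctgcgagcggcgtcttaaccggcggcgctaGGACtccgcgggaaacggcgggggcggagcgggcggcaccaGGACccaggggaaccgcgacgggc
GGAC on the strand shown occurred 0, 2 and 3 times in these stretches, and GTCC 1, 2 and 1 times. On either strand the motif stood in 81.9% of the 33725 autosomal windows of the same length, so its presence is no mark of these 3 starts. In all, wide peaks touched 15 gene start windows.

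PLEC encodes plectin, a giant cytolinker that ties intermediate filaments to junctions and to other filaments, and it held a wide peak in more libraries than any other gene, 14 of 16. In 786-O the longest PLEC peak was 3416, 4331, 5654 and 6086 bp in the SETD2KO libraries and 858, 3427, 3454 and 5728 bp in the SETD2-expressing libraries. In RPTEC it was 699, 3385, 3404 and 3416 bp in SETD2KO and 3090, 3414, 3417 and 3426 bp in SETD2-expressing libraries. The groups overlapped in both cell lines. The library without a wide PLEC peak was SETD2KO-1R replicate 2 in 786-O and SETD2KO-2 replicate 2 in RPTEC. One end of the peak was nearly fixed: among libraries with a wide peak it varied by 42 bp in 786-O and by 39 bp in RPTEC. The other end varied by 2649 bp in 786-O, where the peak could run on, and by 356 bp in RPTEC. The summit sat close to the fixed end in the 7 RPTEC libraries with a wide peak, at 93.6% to 97.0% of the peak's length, and at 80.8% to 96.9% in 786-O. PLEC was the single member with a wide peak among 36 genes listed for a very long coding exon (2.78%), a list that includes AHNAK, MKI67, SRRM2 and SETD2. Over all 19122 autosomal protein-coding genes the share was 0.188%.

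SEPTIN7P13 is a transcribed pseudogene of the septin GTPase SEPTIN7, and its wide peak, within chr1:224011477-224016457, recurred in 12 libraries. Because it resembles its parent gene and other copies, reads placed there may belong to them, and the assignment is uncertain. In 786-O the longest peak was 4895, 4950, 4951 and 4958 bp in SETD2KO and 1945, 3227, 4949 and 4961 bp in SETD2-expressing libraries. In RPTEC the values were 1923, 3067, 3088 and 3117 bp in SETD2KO and 1825, 2390, 3128 and 3168 bp in SETD2-expressing libraries. Lengths recurred over libraries, near 5 kb in 6 libraries of 786-O, near 3 kb in 5 of RPTEC, and at 1825 to 1945 bp in 3 libraries, all with short lists. The wide peak began within 75 bp of the same base in the 7 wide 786-O libraries and within 90 bp in the 5 wide RPTEC libraries, and it ended about where the RPTEC peak ended in 786-O SETD2KO-1R replicate 1, the single wide 786-O peak of 3227 bp. RPTEC libraries covered the remaining stretch with separate peaks, as the plot of peak extents shows.

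**Figure D1:**
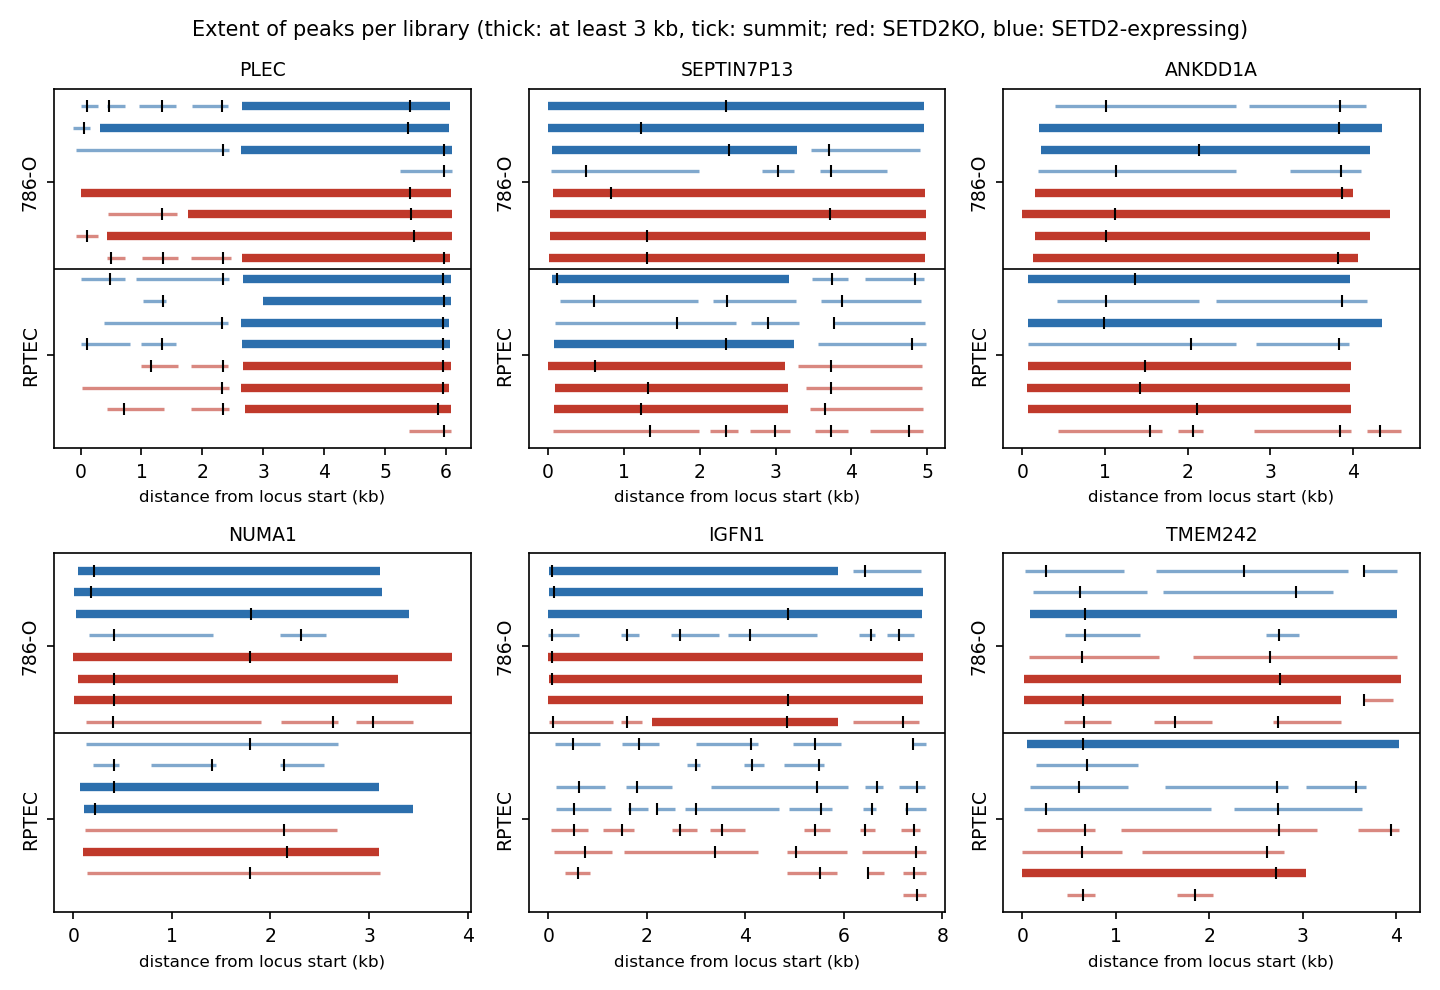
Called peaks at 6 recurrent loci in each of the 16 IP libraries, drawn as horizontal bars against the distance in kb from the first base of the locus. Within each cell line the rows run from top to bottom through WT, SETD2KO-1R, SETD2KO-1 and SETD2KO-2, replicates 1 and 2 of each. Thick bars are peaks of at least 3000 bp, ticks are summits, red is SETD2KO and blue is SETD2-expressing. The wide PLEC peaks share 1 end in both cell lines, while at SEPTIN7P13 most 786-O peaks run to about 5 kb and RPTEC peaks to about 3 kb.

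ANKDD1A, which encodes a protein with ankyrin repeats and a death domain, held a wide peak within chr15:64951360-64955807 in 6 libraries of 786-O and 5 of RPTEC. In 786-O the longest peak was 3851, 3935, 4048 and 4448 bp in SETD2KO and 2189, 2399, 3987 and 4145 bp in SETD2-expressing libraries. In RPTEC it was 1266, 3901, 3905 and 3911 bp in SETD2KO and 1828, 2511, 3896 and 4290 bp in SETD2-expressing libraries. The RPTEC peaks that were wide began within 16 bp of each other. All 5 libraries without a wide peak covered 68.1% to 81.9% of the locus with 2 to 4 shorter peaks. The locus was therefore enriched in all 16 libraries, in 11 of them as 1 uninterrupted call.

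NUMA1 encodes a coiled-coil protein that organises microtubules at the spindle poles, and it was wide within chr11:72012944-72016784 in 6 libraries of 786-O and 3 of RPTEC. In 786-O the longest peak was 1784, 3247, 3832 and 3841 bp in SETD2KO and 1261, 3062, 3124 and 3388 bp in SETD2-expressing libraries. In RPTEC it was 2551, 2972 and 3001 bp in 3 SETD2KO libraries, with none called in the fourth, and 652, 2553, 3034 and 3340 bp in SETD2-expressing libraries. The statuses overlapped in both cell lines. On the strand of NUMA1 the summit mostly lay toward the 3′ end of the peak, at 88.5% to 96.5% of its length, in 4 of 6 wide peaks of 786-O and 2 of 3 of RPTEC. In the other wide peaks it lay at 47.5% and 53.5% in 786-O and at 31.2% in RPTEC. The peaks also overlap NUMA1-AS1 on the other strand, and the lists give no strand.

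IGFN1 encodes a protein with immunoglobulin-like and fibronectin type III domains known from skeletal muscle, and it held the longest wide peaks in any gene, within chr1:201205856-201213472, in 7 libraries of 786-O. Its longest peak was 3785, 7572, 7611 and 7617 bp in the SETD2KO libraries and 1799, 5873, 7591 and 7593 bp in the SETD2-expressing libraries. In RPTEC none was wide, and the longest peak was 457, 747, 1001 and 2731 bp in SETD2KO and 819, 1246, 1906 and 2783 bp in SETD2-expressing libraries. All 8 RPTEC libraries nonetheless had a peak there, and they covered 5.40% to 83.9% of the locus. 5 of the 786-O peaks had nearly the same length, 7572 to 7617 bp. The summit stood at the 5′ edge in 4 of the 7 wide peaks, and its median position was 1.28% of the length from the 5′ end.

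The longest single peak, 19491 bp, lay in no annotated gene, beside the centromere of chromosome 10 in 786-O SETD2KO-2 replicate 1. The locus, chr10:42302335-42321848, is 10018 bp from the nearest annotated gene, the pseudogene LOC441666, and held 12 wide peaks in 7 libraries of 786-O. The longest peak there was 4405, 9867, 9888 and 19491 bp in SETD2KO and 1351, 3180, 3193 and 5152 bp in SETD2-expressing libraries of 786-O. The groups overlapped only in that the shortest SETD2KO value, 4405 bp, lay below the longest SETD2-expressing value. RPTEC had no wide peak at the locus. The 4 RPTEC SETD2KO libraries had peaks of at most 342, 464, 658 and 2002 bp and the 4 SETD2-expressing libraries had none. Of 20602 regions of RPTEC with a peak in at least 4 of 8 libraries, 1.67% had a longer longest peak in every SETD2KO library. Scores of the wide peaks at the chromosome 10 locus had a median at percentile 80.3 of the lists, and the lowest, at percentile 46.9, was the lowest of the 136 wide peaks. How repeated sequence was handled in the alignment is not given in the sources used here, and its part in these calls was not tested.

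**Figure D2:**
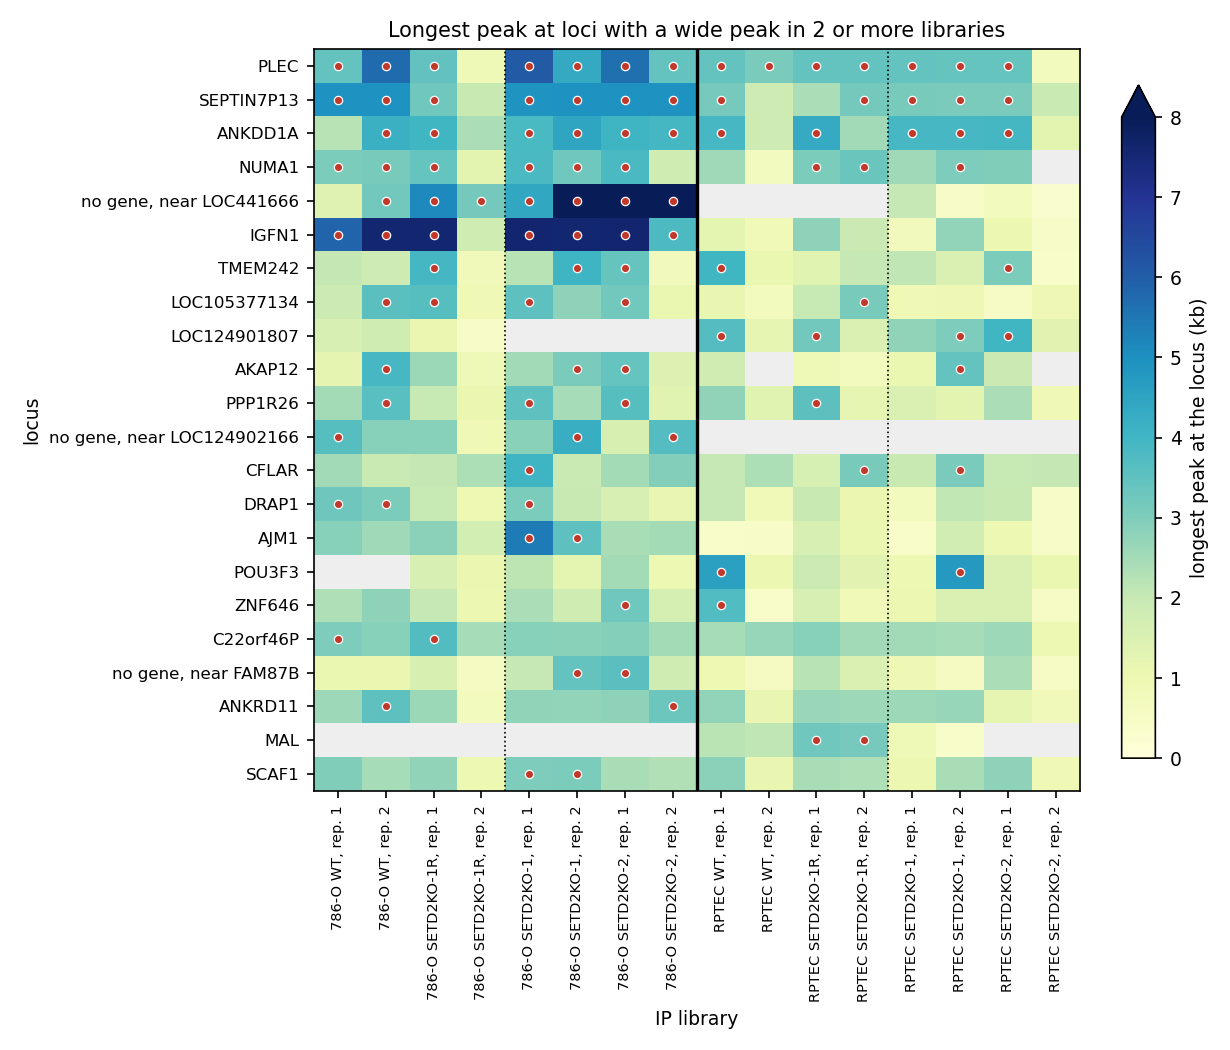
Length in kb of the longest peak (colour, 0 to 8 kb, darker above) at the 22 loci with a wide peak in 2 or more libraries (rows), in the 16 IP libraries (columns). Red dots mark peaks of at least 3000 bp, grey cells have no peak, the solid line parts 786-O from RPTEC and dotted lines part SETD2-expressing from SETD2KO libraries. PLEC carries 14 dots, IGFN1 carries 7 in 786-O and none in RPTEC, and LOC124901807 carries 4 in RPTEC and none in 786-O.

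LOC124901807, an uncharacterised gene of 1492 bp that the RefSeq table lists as protein-coding, was wide in RPTEC alone, with peaks that extended past both ends of the annotated gene. Its longest peak in RPTEC was 1286, 2754, 3000 and 3999 bp in SETD2KO and 1161, 1480, 3209 and 3687 bp in SETD2-expressing libraries. In 786-O the 4 SETD2-expressing libraries had peaks of 454, 1050, 1591 and 1798 bp, and none was called in the 4 SETD2KO libraries. Of 26371 regions of 786-O with a peak in at least 4 of 8 libraries, 1.58% had a shorter longest peak in every SETD2KO library. The split at this gene was picked out after its values were seen, and it was not present in RPTEC. Among long noncoding RNAs only LOC105377134 was wide in more than 1 library. It was wide in 4 libraries of 786-O, at 3205 to 3645 bp, and in 1 of RPTEC at 3096 bp.

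The other protein-coding genes of recurrent width were mostly wide in few libraries of both statuses. TMEM242, a transmembrane protein, was wide in 3 libraries of 786-O and 2 of RPTEC, with a longest peak of 4035 bp. AKAP12, a scaffold for protein kinase A, was wide in 3 libraries of 786-O and 1 of RPTEC. PPP1R26, a regulatory subunit of protein phosphatase 1, was likewise wide in 3 and 1. Its 3 summits in 786-O fell within 37 bp of each other, at 90.6% to 92.4% of the peak's length from the 5′ end.

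DRAP1 and AJM1, a component of apical junctions, were wide in 786-O alone. DRAP1 was wide in both WT libraries and 1 SETD2KO library, at 3274, 3039 and 3054 bp, and its peaks began before the annotated start shown above. These peaks also overlap C11orf68 on the other strand, so the width is not that of DRAP1 alone. The 3274 bp peak had its summit in no annotated gene. AJM1 was wide in both SETD2KO-1 libraries, at 5433 and 3515 bp. C22orf46P, a transcribed pseudogene, reached 3027 and 3688 bp in SETD2-expressing libraries of 786-O and 2452 to 2918 bp in the other 6 libraries of 786-O. It shows how close many peaks stood to the limit.

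In RPTEC, POU3F3, a POU-domain transcription factor of the developing nephron and brain, had wide peaks of 4575 bp in WT replicate 1 and 4754 bp in SETD2KO-1 replicate 2. Their summits were 16 bp apart. All other RPTEC libraries had a longest peak of 988 to 1863 bp at the locus, so these 2 libraries stood apart from their own replicates. CFLAR, which encodes the caspase-8 inhibitor c-FLIP, was wide in 2 libraries of RPTEC and 1 of 786-O. ZNF646, a zinc finger protein, was wide in 1 library of each cell line, at 3738 bp in RPTEC WT replicate 1 and 3237 bp in 786-O SETD2KO-2 replicate 1. LINC01411, a long noncoding RNA, was wide in RPTEC SETD2KO-1 replicate 1 alone, at 4096 bp, with the lowest score of any wide peak in RPTEC, at percentile 63.3. MAL, a proteolipid of apical membrane sorting, was wide in both RPTEC SETD2KO-1R libraries at 3139 and 3232 bp, and had no peak in any 786-O library.

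Single-library loci were seldom gains from nothing. At 16 of the 24 loci every library of both cell lines had some peak. SLC9A3, the sodium/proton exchanger of the proximal tubule brush border, was wide in 786-O SETD2KO-1 replicate 1 at 5056 bp and 1721 to 2548 bp in the other 7 libraries of 786-O. PURB, a single-stranded nucleic acid binding protein, reached 3276 bp in the same library. These genes are named because they hold the best score ranks, and were chosen after their values were seen. Over all pairs of locus and library, 131 of 736 had a wide peak and 605 did not, and of the 605, 460 had at least 2 separate peaks, 78 had 1 and 67 had none. Where no peak was wide, peaks covered a median of 63.8% of the locus.

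Gene lists drawn up for this comparison held few wide peaks. In all, 36 of 19122 autosomal protein-coding genes (0.188%) held the summit of a wide peak in at least 1 library. Zinc finger genes named ZNF had 3 of 467 (0.642%): ZNF646, ZNF69 and ZNF281. Of 15 genes listed for a very long 3′ untranslated region, PURB was the only one with a wide peak. None of 9 long noncoding RNAs, 63 protocadherin genes, 19 genes of the m6A machinery, 11 ccRCC genes or 15 extracellular matrix genes held one, and the longest peaks in these lists were 2406, 2901, 1675, 2032 and 1449 bp. SETD2 itself had peaks in all 16 libraries, the longest of 1086 bp.

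The number of wide peaks was compared between SETD2 statuses, since the limit of 3000 bp uses no group. In 786-O, SETD2KO-1 had 19 and 14 wide peaks, SETD2KO-2 had 18 and 9, WT had 8 and 15 and SETD2KO-1R had 12 and 1. Per 10000 autosomal peaks these are 6.02, 4.08, 4.70 and 3.24 in SETD2KO libraries and 2.62, 4.26, 3.88 and 0.403 in SETD2-expressing libraries. The groups overlapped. Means were 4.51 ± 1.17 (SD, n = 4) and 2.79 ± 1.74 (SD, n = 4), a difference of 1.72 that did not pass (exact permutation, two-sided, 70 arrangements, p = 0.171, adjusted over 10 tests 0.400). Without SETD2KO-1R replicate 2 the difference was 0.925. With 18432 peaks from every list, which compares plain counts, it was 3.26 (exact permutation p = 0.200).

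In RPTEC the counts were 4 and 9 in SETD2KO-1, 5 and 0 in SETD2KO-2, 9 and 1 in WT, and 6 and 6 in SETD2KO-1R. Per 10000 autosomal peaks the means were 1.69 ± 1.27 (SD, n = 4) in SETD2KO and 1.99 ± 1.21 (SD, n = 4) in SETD2-expressing libraries. The difference of -0.30 was smaller than the spread between libraries (exact permutation p = 0.686, adjusted 0.980). Its sign turned without SETD2KO-2 replicate 2 (0.27), without WT replicate 1 (0.18), without the lists under 25000 peaks (0.026) and at a minimum length of 4000 bp (0.0091). With 18432 peaks from every list, which compares plain counts, the difference was -0.54 (exact permutation p = 0.686). The SETD2KO effect differed by 2.02 between the cell lines, which did not pass an exact permutation test of the difference (p = 0.171).

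**Figure D3:**
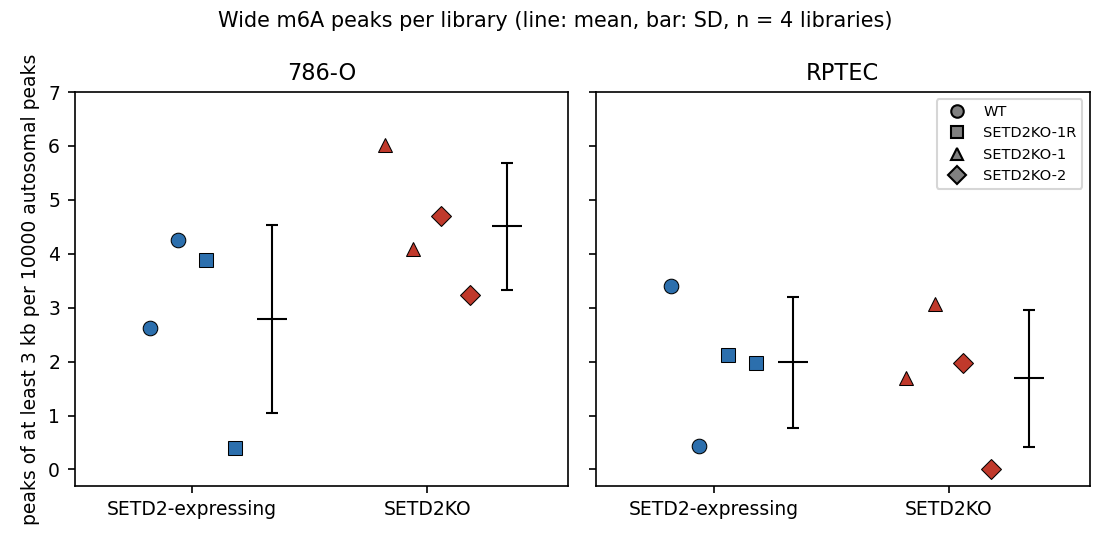
Peaks of at least 3000 bp per 10000 autosomal peaks in each IP library of 786-O (left) and RPTEC (right), by SETD2 status. Symbols show the lines, horizontal bars the mean and whiskers the SD of 4 libraries. SETD2KO libraries of 786-O range from 3.24 to 6.02 and overlap the SETD2-expressing libraries at 0.403 to 4.26. RPTEC SETD2KO-2 replicate 2 has none.

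786-O had 96 wide peaks and RPTEC 40. Per 10000 autosomal peaks the rate was 3.65 ± 1.65 (SD, n = 8) in 786-O and 1.84 ± 1.16 (SD, n = 8) in RPTEC. The difference of 1.81 had p = 0.0255 by exact permutation (two-sided, 12870 arrangements), and failed after adjustment over the 10 tests (0.127). It fell to 1.30 (exact permutation p = 0.0824) without the peaks beside the centromere of chromosome 10. With summits in a gene only, the difference was 0.964 (exact permutation p = 0.165). The exact permutation p was 0.0571 with 8 line means as units and 0.0514 without SETD2KO-1 replicate 1 of 786-O. The unadjusted exact permutation p was 0.0154 with 18432 peaks from every list (a difference of 3.798, which compares plain counts), 0.0177 without the lists under 25000 peaks, 0.0017 at a minimum length of 2000 bp and 0.0030 at 4000 bp. The cell lines were grown in different media, and no label gives a batch of preparation, so cell line, medium and any such batch cannot be told apart.

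Wide peaks ranked high by score but not at the top. The score of a peak has no stated scale, so it is given as a percentile within its own list, and as score and length come from one signal no test against other peaks was made. The median percentile was 91.5 over the 96 peaks of 786-O and 91.7 over the 40 of RPTEC, and 80 of the 136 (58.8%) lay above percentile 90. Peaks from 2000 to under 3000 bp had a median at percentile 85.0 and those from 300 to under 500 bp at 42.6. No wide peak was among the 10 highest scores of a list. Only 2 were among the 100 highest, SLC9A3 at rank 52 and PURB at rank 83, both in 786-O SETD2KO-1 replicate 1.

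The highest percentile at the recurrent genes was 99.7 for IGFN1 and 99.7 for PLEC, both in 786-O SETD2KO-2 replicate 1. POU3F3 reached 99.5. The DRAP1 locus reached 99.5 in the peak with its summit in no gene, and 99.4 in a peak with its summit in DRAP1. In contrast the NUMA1 peaks of RPTEC lay at percentiles 74.2 to 83.6. Library medians of the percentile were 90.4 to 92.3 in the 4 SETD2KO libraries of 786-O and 52.7 to 93.4 in the SETD2-expressing libraries, the lowest resting on 1 peak. The mean difference was 8.81 percentile points (exact permutation p = 0.943), and it turned to -1.19 without SETD2KO-1R replicate 2 and to -1.58 against WT alone. In RPTEC, where SETD2KO-2 replicate 2 had no wide peak and dropped out, the difference was -0.02 points (exact permutation p = 1, 3 against 4 libraries). The RPTEC test could not have passed, since 3 against 4 libraries allow no exact permutation p below 0.0571. In 786-O no difference in rank by SETD2 status was detectable.

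As a percent of peak length, summits stood nearer an end in wide peaks than in others. This does not hold for distance in bases, as median lengths were 3544.5 bp for wide and 395 bp for all autosomal peaks. The summit lay within 10% of the length from the nearer end in 38 of 136 wide peaks (27.9%) and in 9.66% of the other autosomal peaks, and in 26.4% of peaks from 2000 to under 3000 bp. Its median distance from the nearer end was 21.4% of the length against 29.8%. Those near an end included all 7 of PLEC in RPTEC and, in 786-O, 4 of IGFN1 and all 3 of PPP1R26. For 81 wide peaks the strand of the gene is known from the promoter table, and of these 13 had the summit in the 20% of length next to the 5′ end, 25 in the 20% next to the 3′ end and 43 between.

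**Figure D4:**
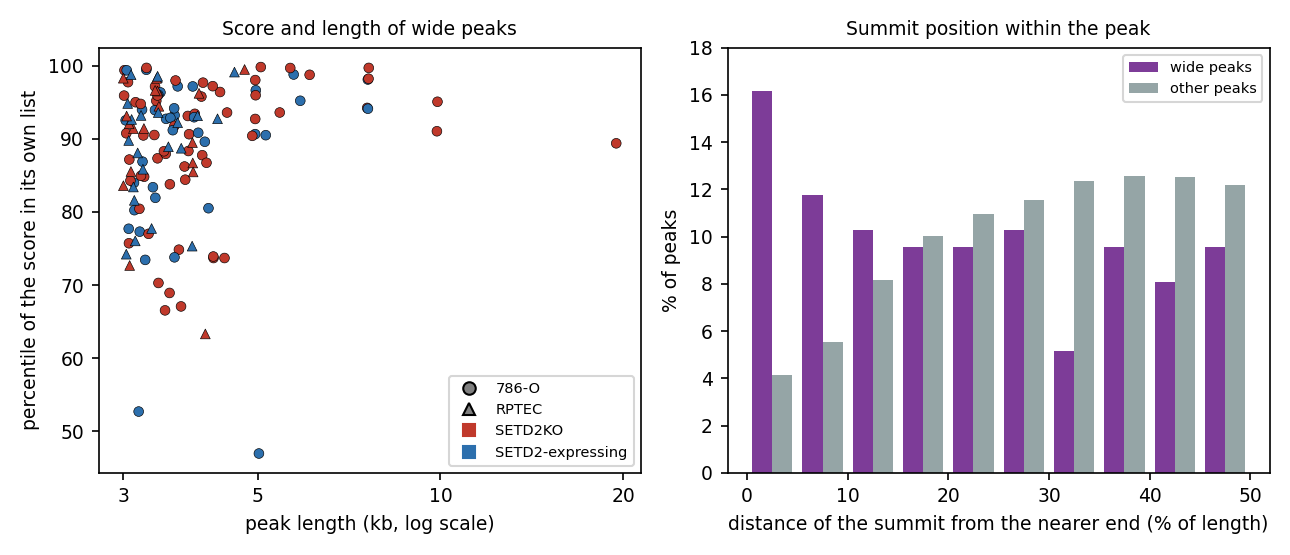
Left, percentile of the score within its own list against peak length in kb (log axis) for the 136 wide peaks, by cell line (symbol) and SETD2 status (colour). Right, distance of the summit from the nearer end as percent of peak length, in bins of 5%, as percent of wide peaks and of all other autosomal peaks. The lowest bin holds 16.2% of wide and 4.13% of other peaks, and the 2 lowest points on the left are peaks of the chromosome 10 locus.

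By SETD2 status, the library median of the summit position from the 5′ end was 60.8% ± 27.3 (SD, n = 4) in SETD2KO and 57.3% ± 13.97 (SD, n = 3) in SETD2-expressing libraries of 786-O. With 4 against 3 libraries no exact permutation p below 0.0571 was possible, and the difference of 3.43 points was well within the spread (exact permutation p = 0.800). Its sign turned at 2000 bp (-3.26) and without WT replicate 1 (-1.20), SETD2KO-2 replicate 1 (-3.43) or SETD2KO-2 replicate 2 (-3.97), and it was 15.3 points without SETD2KO-1 replicate 2 and 11.47 without WT replicate 2. In RPTEC the medians were 34.5% ± 15.5 (SD, n = 3) and 58.8% ± 19.9 (SD, n = 3). This difference of -24.37 points could not pass the threshold, since 3 against 3 libraries allow no exact permutation p below 0.100, and the value was 0.200. With a minimum length of 2000 bp the difference was -1.86 points (exact permutation p = 0.857). The distance from the nearer end, another quantity, differed by 9.39 points. Each median rests on 2 to 13 peaks.

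Wide peaks lay in protein-coding genes less often than other peaks. Of 136 summits, 92 were in a protein-coding gene and 24 (17.6%) in no gene, and among other peaks 7.70% were in no gene. Over the 15 libraries with a wide peak, 65.4% ± 25.6 (SD) of wide summits and 85.6% ± 2.48 (SD) of other summits were in a protein-coding gene, lower for wide peaks in 11 of 15. The mean difference was -20.17 points (two-sided exact sign-flip permutation test, p = 0.0030, adjusted over 10 tests 0.0299). The same loci recur over libraries, so these are not 15 independent samples of loci. Of the wide summits outside protein-coding genes, 12 lay at the chromosome 10 locus and 12 in the pseudogene SEPTIN7P13. The difference without SEPTIN7P13 was not tested. The difference was -30.83 points and held in 8 of 8 libraries of 786-O (exact permutation p = 0.0078). In the 7 libraries of RPTEC it was -7.99 points, lower in 3 of 7 (exact permutation p = 0.312). Without the chromosome 10 peaks the pooled difference was -11.17 points (exact permutation p = 0.0226), and with a minimum length of 2000 bp it was -4.91 points (exact permutation p = 0.0009).

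**Figure D5:**
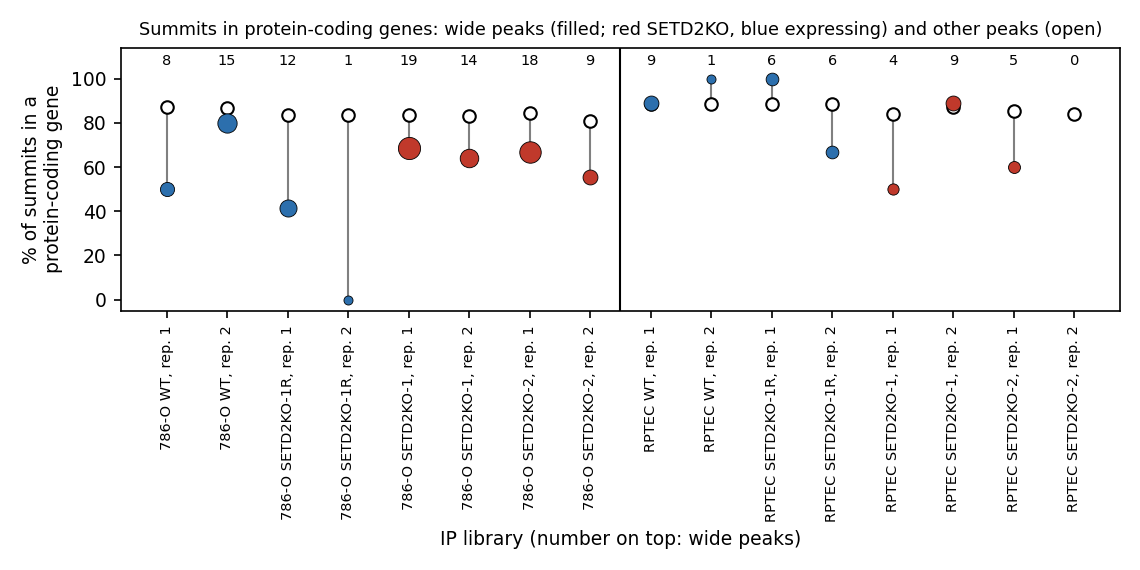
Percent of peak summits inside a protein-coding gene for wide peaks (filled, red SETD2KO, blue SETD2-expressing, larger symbols for more peaks) and all other autosomal peaks (open) in each IP library. The number above each column is the count of wide peaks. In 786-O every filled symbol is below its open symbol, while RPTEC has symbols on both sides.

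Between statuses, the share of wide summits in protein-coding genes was 63.7% ± 5.71 (SD, n = 4) in SETD2KO and 42.9% ± 33.0 (SD, n = 4) in SETD2-expressing libraries of 786-O. The exact permutation p for the difference of 20.8 points was 0.257. The SETD2-expressing mean holds a share of 0% from the 1 wide peak of SETD2KO-1R replicate 2, and the difference was 6.51 points without that library, 33.2 points without WT replicate 2 (exact permutation p = 0.0286) and -8.09 points with a minimum length of 2000 bp. In RPTEC the shares were 66.3% ± 20.2 (SD, n = 3) and 88.9% ± 15.7 (SD, n = 4), with an exact permutation p of 0.200. With all libraries and the limit of 3000 bp, the 786-O difference did not pass. The RPTEC difference could not, since 3 against 4 libraries allow no exact permutation p below 0.0571. The difference between the cell lines in this effect, 43.4 points, had an exact permutation p of 0.0563 (adjusted over 4 such tests 0.225).

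The longest peak was also set side by side by SETD2 status at each region, merged over the libraries of a cell line and holding a peak in at least 4 of 8 libraries. In 786-O, 2 of 38 regions with a wide peak had a longer longest peak in every SETD2KO library, against 3.3% of 26371 regions, and 1 had a shorter one in every SETD2KO library, against 1.58%. In RPTEC the counts were 0 of 17, against 1.67% of 20602 regions, and 1 of 17, against 1.94%. Because the regions were selected on length, nothing is read from these shares. The region at MAL in RPTEC had longest peaks of 0, 0, 388 and 860 bp in SETD2KO and 2115, 2182, 3139 and 3232 bp in SETD2-expressing libraries. At CELSR2, a seven-pass cadherin, the 786-O values were 752, 857, 1025 and 1083 bp against 1147, 1219, 2476 and 3383 bp. A region at chr1:819931-823596, next to the long noncoding RNA FAM87B, had 1811, 2023, 3428 and 3576 bp in SETD2KO and 595, 1037, 1068 and 1535 bp in SETD2-expressing libraries of 786-O. The remaining region lay near SBSPON, with 2423 to 3795 bp against 941 to 1746 bp in 786-O. These 4 regions were chosen after their values were seen.

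A graded value was the length of each gene covered by peaks, tested on the log2 scale with limma over all protein-coding and long noncoding genes covered in all 8 libraries of a cell line. Of the 37 genes that hold a wide peak, 32 could be tested in 786-O and none was called at an adjusted p of 0.05, and 1 had an unadjusted p below 0.05. Over all 7041 genes tested in 786-O, 5 were called (0.071%) and 701 had an unadjusted p below 0.05. None was called without centring, with a replicate block, with 18432 peaks from every list, or in 6 of the 8 fits that left out 1 library. In RPTEC 33 could be tested and none was called, with 2 at an unadjusted p below 0.05. Genes with no covered length in any 1 library were left out, among them MAL in RPTEC and LOC124901807 in 786-O. The absence of calls therefore says nothing of these genes. Over all 5787 genes of RPTEC 0 were called (0%), with 495 at an unadjusted p below 0.05. The count was 3 with genes covered in at least 6 of 8 libraries and 21 against WT alone, all higher in SETD2KO. The median log2 difference of the wide-peak genes was 0.16 in 786-O and -0.01 in RPTEC, and over all genes tested the medians were 0.01 and -0.0008. The wide-peak genes were chosen on peak length, of which covered length is made, and in 786-O 19 loci were wide in SETD2KO libraries only and 7 in SETD2-expressing libraries only, so nothing is read from these medians.

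XAF1, an interferon-inducible antagonist of XIAP, had the lowest adjusted p among wide-peak genes of 786-O. Peaks covered 2466, 2707, 3143 and 3490 bp of it in SETD2KO and 490, 546, 2159 and 2857 bp in SETD2-expressing libraries, a log2 difference of 1.31 ± 0.52 (SE) with limma adjusted p = 0.448. GAS6, the ligand of the TAM receptor kinases, had a log2 difference of 0.49 ± 0.26 (SE) and PPP2R2D, a regulatory subunit of protein phosphatase 2A, one of -0.56 ± 0.29 (SE), with limma adjusted p of 0.580 and 0.564. In RPTEC the lowest values belonged to FBLN7, a fibulin (1.36 ± 0.57 SE, adjusted p = 0.517), LOC105377134 (-1.09 ± 0.48 SE, adjusted p = 0.558) and CELSR2 (-0.40 ± 0.26 SE, adjusted p = 0.791). SETD2, the targeted gene, was covered over 1601, 2322, 2337 and 2341 bp in RPTEC SETD2KO and 3756, 4295, 4320 and 4520 bp in RPTEC SETD2-expressing libraries. Its groups did not overlap, but the log2 difference of -0.81 ± 0.30 (SE) had a limma adjusted p of 0.489. How many of all genes tested had groups without overlap was not counted. In 786-O the groups overlapped, and the log2 difference was -0.43 ± 0.26 (SE) with a limma adjusted p of 0.653. A peak list shows enrichment and not protein, so these values do not check the knockout.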

How the data were processed

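MeRIP-seq was carried out on 16 IP libraries, and 16 Input libraries were not analysed here. RNA was fragmented before IP and an E. coli spike-in was added. Per the labels, the authors used STAR, HTSeq and MACS2 on hg38, and each deposited list gives, per peak, coordinates, a whole-number score of unstated scale and a summit. The authors called peaks per library, so replicates can be compared. Fragment length and a caller's joining of nearby enriched stretches set how long a peak becomes.

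Peaks of at least 3000 bp on chromosomes 1 to 22 were kept and merged into loci where they overlapped by at least 1 bp. A locus took the name of the protein-coding gene that holds most summits, otherwise of another gene, by gene bodies of GRCh38.p14 (RefSeq), which give no exons. Group differences were tested by exact two-sided permutation over libraries with Benjamini-Hochberg adjustment over 10 tests, and covered length with limma 3.58.1 (R 4.3.3), each library centred on its median. Named genes were the 12 with wide peaks in most libraries per cell line, genes wide in all 4 libraries of one status only (none), the 5 longest peaks, listed genes with a wide peak in at least 4 libraries of a cell line, the 3 lowest adjusted p of covered length and SETD2. The members and lists were chosen with earlier results of these data known. Steps were tested on simulated data. Alternatives were lengths of 2000 and 4000 bp, peaks within 100 bp merged, 18432 top-scoring peaks per library, a replicate block, WT as the only control, midpoints, line means, and each library left out. Leaving out peaks in no gene, chromosome 10 peaks and lists under 25000 peaks, and each cell line alone, were chosen after seeing the data. Calculations used Python 3.11.15, NumPy 2.4.6 and pandas 2.3.3.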

Additional observations from a re-analysis of the deposited data

Results flagged for a closer look

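Groups of 4 or more libraries were screened for a library far from the others, 57 groups in all. The rule is set to flag about 1 in 20 groups by chance for normally distributed values, and its rate in these data was not tested. The median percentile of the score was 52.7 in 786-O SETD2KO-1R replicate 2, which had 1 wide peak, while the other 3 SETD2-expressing libraries of 786-O had 91.9 to 93.4.

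At single loci the longest peak stood apart in 9 groups, and in 4 of them the library was RPTEC SETD2KO-2 replicate 2, the shortest list. That library had 699 bp at PLEC (others 3385 to 3416), 1923 bp at SEPTIN7P13 (others 3067 to 3117), 1266 bp at ANKDD1A (others 3901 to 3911) and 0 bp at NUMA1, where no peak was called (others 2551 to 3001). PLEC in RPTEC WT replicate 2 had 3090 bp, against 3414 to 3426 bp in the other SETD2-expressing libraries. NUMA1 in 786-O SETD2KO-1R replicate 2 had 1261 bp, against 3062 to 3388 bp. IGFN1 in 786-O SETD2KO-2 replicate 2 had 3785 bp, against 7572 to 7617 bp. SEPTIN7P13 in 786-O SETD2KO-1 replicate 1 had 4895 bp, against 4950 to 4958 bp, a gap that is small in bp. LOC105377134 in RPTEC SETD2KO-2 replicate 1 had 491 bp, against 904 to 929 bp.

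Outside the autosomes, which the comparisons do not use, 10 further peaks of at least 3000 bp were found in 9 libraries.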

How the results depend on the processing

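There were 66 alternatives other than leaving out 1 library. Of these, 48 kept the sign and side of the threshold of a difference, or a count of calls within 1.5 times for covered length. The 48 are no measure of stability, since some could not have come out otherwise. Replicate blocks leave a difference as it was and could not reach the threshold. Merging nearby peaks left the differences in wide peaks per 10000 peaks unchanged. With 18432 peaks from each list, those differences compare plain counts. Among the 48 is covered length in 786-O against WT alone. It had 6 genes higher and 0 lower in SETD2KO, against 2 and 3 with both controls. The difference in wide peaks per 10000 peaks between the cell lines was no longer past the threshold with 8 line means as units (1.81), with summits in a gene only (0.964) or without the chromosome 10 peaks (1.30). The lower share of wide summits in protein-coding genes was -7.99 points and did not pass in RPTEC alone. Signs turned, always with neither value past the threshold, for the SETD2KO difference in wide peaks per 10000 in RPTEC at 4000 bp (0.0091) and without lists under 25000 peaks (0.026), for the percentile against WT alone in 786-O (-1.58) and at 2000 bp in RPTEC (0.848), for the summit position at 2000 bp in 786-O (-3.26), and for the coding share in 786-O at 2000 bp (-8.09) and against WT alone (-1.27). The distance from the nearer end in RPTEC (9.39) was also tallied as turned. It is another quantity than the position from the 5′ end, so the 2 signs cannot be compared. Genes called by covered length in 786-O were 5, and 0 with no centring, with genes covered in at least 6 of 8 libraries, with 18432 peaks taken from each list or with a replicate block. RPTEC had 0, and 3 with genes covered in at least 6 of 8 and 21 against WT alone. The cause was not tested.

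Libraries of different lines that share a number were not taken as pairs, with correlations of deviations of -0.073 to 0.292 in 786-O and -0.264 to 0.231 in RPTEC. Under a replicate block the difference in wide peaks per 10000 was 1.72 in 786-O (exact permutation p = 0.222) and -0.30 in RPTEC (exact permutation p = 0.722), but these permutations have at most 36 arrangements and could not reach the threshold, so they say nothing of stability.

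Leaving out each library in turn gave a difference in wide peaks per 10000 of 0.925 to 2.21 in 786-O, -0.81 to 0.27 in RPTEC and 1.47 to 2.28 between the cell lines. The percentile difference was -1.19 to 12.4 points in 786-O and -2.07 to 2.28 in RPTEC, the summit position -3.97 to 15.3 and -33.3 to -13.6 points, and the coding share 6.51 to 33.2 and -33.9 to -14.4 points. The coding share in 786-O passed the threshold without WT replicate 2 (33.2 points, exact permutation p = 0.0286). Genes called by covered length were 0 to 5 in 786-O and 0 to 2 in RPTEC. The depth of each library is unknown here, so no detection limit could be given for a wide peak that was not called.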
